A study of Rattus norvegicus with 6 samples.

Results

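The 10 glycolytic enzymes described here are the genes of the deposited count table whose symbols are Hk1, Hk2, Pfkl, Aldoa, Aldoc, Tpi1, Gapdh, Pgk1, Eno1 and Ldha, out of 20609 genes in all. Each symbol was found on a single row of the table, and all 10 genes had enough counts to be tested. RNA-seq of rat PC12 cells, a line derived from a pheochromocytoma of the adrenal medulla, compared 3 control libraries with 3 PCBP1-OE libraries. PCBP1-OE cells were given a plasmid for the RNA-binding protein PCBP-1. The methods describe this plasmid as tagged with EGFP and delivered by lipid transfection, and they do not describe the treatment of the control cells. The paper's introduction speaks of stable overexpression, which the methods do not describe. The libraries held 19730209 to 22315623 counts on genes. Levels are given as CPM, the counts of a gene scaled to a common library total, after TMM scaling, and a change was called at a false discovery rate (FDR) of 0.05 or less in edgeR's quasi-likelihood test over 12624 genes, whatever its size. Nothing in the labels says whether the replicates were separate cultures, so the p-values measure only the spread between these libraries.

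Glycolysis splits a molecule of glucose into a pair of pyruvate molecules in the cytosol. Hexokinase and phosphofructokinase spend ATP in the first steps, aldolase and triosephosphate isomerase produce the three-carbon sugars, and glyceraldehyde-3-phosphate dehydrogenase, phosphoglycerate kinase, phosphoglycerate mutase, enolase and pyruvate kinase recover ATP and NADH. Lactate dehydrogenase A turns pyruvate into lactate and returns NAD+. Many of these genes are textbook targets of the hypoxia-inducible factor HIF-1, and Gapdh is widely used as a reference gene because its mRNA is abundant in most cells.

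PCBP1-OE libraries held less mRNA of several of these enzymes, and the changes were small. Of the 10 genes, 5 fell (Aldoc, Tpi1, Eno1, Pfkl and Gapdh) and 0 rose, against 5.00% of all tested genes that fell, 4.45% that rose and 9.45% that changed in either direction. The called decreases ran from 10.2% for Gapdh to 24.2% for Aldoc, and none of the 10 genes reached the 2-fold change that 0.190% of tested genes showed. The fitted log2 fold change was negative in 9 of 10 genes, with a median of -0.15, where all tested genes had a median of 0.0029. The 10 genes were chosen with earlier results of these data known, so these counts describe the list and are not a test of it.

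The call depends on the libraries that are used. Without control replicate 2, 0 of the 10 genes passed (6 had an unadjusted p under 0.05 in the same edgeR test), and 0.375% of all tested genes did. Only Aldoc passed when PCBP1-OE replicate 1 or 2 was omitted, where 1.32% and 1.06% of all tested genes passed. Without control replicate 1 it was 3 of the 10, beside 1.92% of all tested genes, and without control replicate 3 it was 8, beside 22.3%. The number of enzymes called thus moved with the number called over the whole table. All of the enzymes called in these fits were lower in PCBP1-OE.

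**Figure D1:**
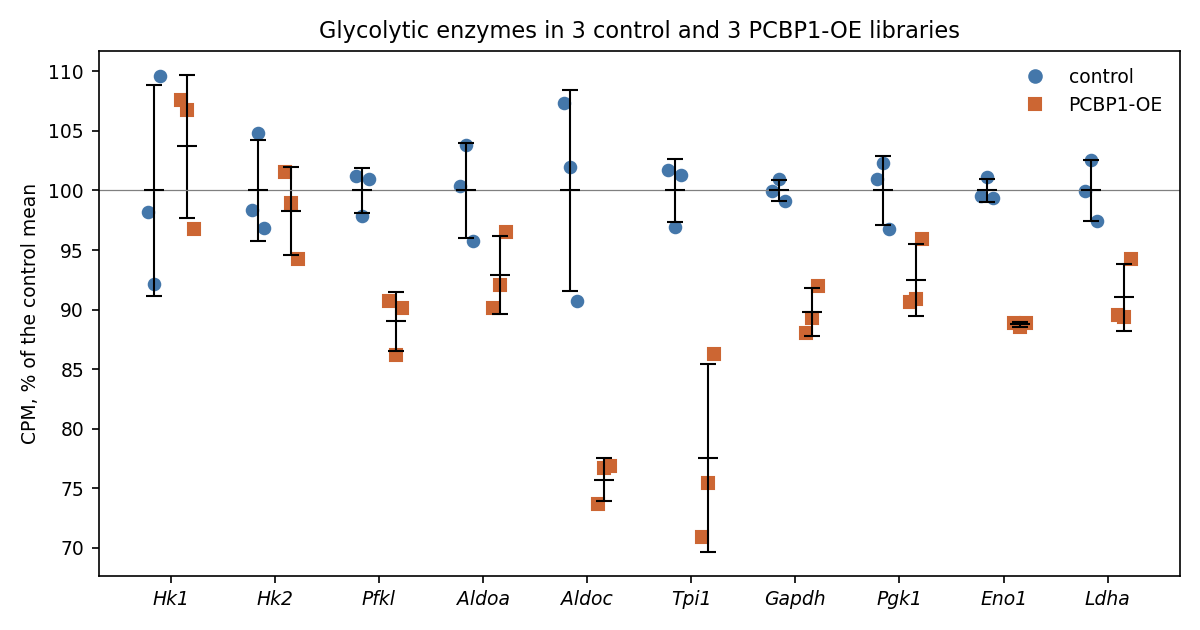
CPM of each glycolytic enzyme in each library as a percent of the mean of the 3 control libraries, with control libraries as circles, PCBP1-OE libraries as squares, and the mean and SD (n = 3) as bars. The vertical axis does not start at 0. Aldoc, Tpi1, Eno1, Pfkl, Gapdh, Pgk1 and Ldha have every PCBP1-OE library below every control library, while Hk1, Hk2 and Aldoa overlap.

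Hexokinase traps glucose in the cell as glucose-6-phosphate, and neither of its isozymes listed here changed detectably. Hk1 (ENSRNOG00000046891, chromosome 20), the isozyme found in most tissues, was at 149, 140 and 166 CPM in control replicates 1 to 3 and at 163, 162 and 147 CPM in PCBP1-OE replicates 1 to 3. The groups overlapped, and its log2 fold change of 0.05 had a 95% interval of -0.084 to 0.19 (adjusted p = 0.630, edgeR). Hk2 (ENSRNOG00000006116, chromosome 4), the inducible isozyme, was at 53.0, 56.5 and 52.3 CPM in the control libraries and 54.8, 53.4 and 50.8 CPM in the PCBP1-OE libraries. Its log2 fold change was -0.025, with a 95% interval of -0.14 to 0.093 (adjusted p = 0.805, edgeR). The sign for Hk2 turned positive when libraries were scaled by their size alone (0.018) or without control replicate 2 (0.016) or PCBP1-OE replicate 3 (0.011). Because a ratio within a library does not depend on scaling, Hk2 was also read against Hk1. The count of Hk2 was 35.7%, 40.5% and 31.5% of that of Hk1 in the control libraries and 33.6%, 33.0% and 34.7% in the PCBP1-OE libraries (two-sided exact permutation test on the log2 ratio, p = 0.6, with 0.1 the smallest p that 3 against 3 libraries allow).

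Pfkl, the liver-type subunit of phosphofructokinase, which catalyses the committed step of the pathway, fell slightly. Pfkl (ENSRNOG00000001214, chromosome 20) was at 106, 102 and 106 CPM in the control libraries and 94.98, 90.3 and 94.4 CPM in the PCBP1-OE libraries. Every PCBP1-OE library lay below every control, as in 7 of the 10 enzymes, and 16.5% of all tested genes showed this pattern (30.6% had no overlap in either direction). The log2 fold change was -0.17 (SE 0.044, 95% interval -0.26 to -0.073, adjusted p = 0.0348, edgeR). The call was lost in 8 of 16 alternatives, among them the omission of any library other than control replicate 3.

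Aldolase cleaves fructose-1,6-bisphosphate, and the table holds both of its isozymes of this list. Aldoc (ENSRNOG00000011452, chromosome 10), the isozyme best known from brain, fell most of the 10 enzymes. It was at 49.1, 46.6 and 41.5 CPM in the control libraries and 33.7, 35.04 and 35.1 CPM in the PCBP1-OE libraries. The groups were well apart, with all of the PCBP1-OE libraries close together and control replicate 3 the lowest control. Its log2 fold change was -0.40 (SE 0.069, 95% interval -0.55 to -0.25, adjusted p = 0.00870, edgeR), and it passed in 14 of 16 alternatives. Without control replicate 2 the adjusted p was 0.0664. Aldoa (ENSRNOG00000052802, chromosome 1), the aldolase of muscle and of most other cells, was at 1585, 1638 and 1512 CPM in the control libraries and 1423, 1453 and 1523 CPM in the PCBP1-OE libraries. PCBP1-OE replicate 3 lay above control replicate 3, so the groups overlapped, and the log2 fold change of -0.11 (SE 0.047, 95% interval -0.21 to -0.0053) did not pass (adjusted p = 0.155, edgeR).

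Read against Aldoa in the same library, Aldoc counts were 3.10%, 2.85% and 2.74% of those of Aldoa in the control libraries and 2.37%, 2.41% and 2.31% in the PCBP1-OE libraries. The log2 ratio was -5.11 ± 0.090 in the control libraries and -5.40 ± 0.032 in the PCBP1-OE libraries (SD, n = 3 each), a difference of -0.29 with groups that did not overlap (exact permutation test, two-sided, p = 0.1, which is the lowest value attainable). The counts are not corrected for transcript length, so the ratio is read only between libraries and not as the relative amount of the isozymes.

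Triosephosphate isomerase interconverts the products of aldolase. Tpi1 (ENSRNOG00000015290, chromosome 4) was at 17.6, 16.8 and 17.6 CPM in the control libraries and 12.3, 13.1 and 14.96 CPM in the PCBP1-OE libraries. Here the controls were close together and PCBP1-OE replicate 3 lay nearest to them. The log2 fold change was -0.37 (SE 0.098, 95% interval -0.58 to -0.16, adjusted p = 0.0372, edgeR), the second largest decrease of the 10. It rests on 264 to 394 counts per library, and its interval is the widest of the 10 genes. The table also holds LOC100911515, described as triosephosphate isomerase-like, and AC094212.1, described as triosephosphate isomerase. Reads that map equally well to near-identical copies are lost when only uniquely mapped reads are counted, so the counts of Tpi1 are uncertain.

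Gapdh, the first enzyme of the energy-yielding steps, was lower in PCBP1-OE. Gapdh (ENSRNOG00000018630, chromosome 4) was at 3713, 3750 and 3682 CPM in the control libraries and 3271, 3317 and 3417 CPM in the PCBP1-OE libraries. The controls differed from each other by less than the gap to the nearest PCBP1-OE library. Its log2 fold change was -0.16 (SE 0.041, 95% interval -0.24 to -0.067, adjusted p = 0.0356, edgeR). Omitting control replicate 2 (adjusted p = 0.0981, edgeR) ended the call, as did omitting PCBP1-OE replicate 1 (0.116) or 2 (0.147), upper-quartile scaling and scaling by library size alone (0.0616). The adjusted p of Gapdh ran from 7.6e-04 to 0.201 over 16 alternatives. The study's RT-qPCR assays used Gapdh as their reference, with the primers below, which are shown because they mark the transcript against which those assays were read. The RT-qPCR itself was not analysed here.
Gapdh forward primer: tctcttgtgacaaagtggaca
Gapdh reverse primer: cccattctcagccttgactgt

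Rat Gapdh has many near-identical copies in the genome, and the table counts 12 further genes whose descriptions name this enzyme. Together these rows held 39306, 40554 and 41887 counts in the control libraries and 34219, 33295 and 32688 counts in the PCBP1-OE libraries. Of all counts on Gapdh and its copies, these counts were 35.1%, 34.1% and 33.7% in the control libraries. In the PCBP1-OE libraries they were 32.2%, 33.2% and 32.8%, without overlap between the groups. Nearly all of them fell on LOC685186 (ENSRNOG00000030963, chromosome 5), described as similar to Gapdh, at 1903, 1842 and 1784 CPM in the control libraries and 1478, 1567 and 1591 CPM in the PCBP1-OE libraries. This row fell as well, with a log2 fold change of -0.25 (SE 0.046, adjusted p = 0.00978, edgeR), and Gapdh-ps2 (ENSRNOG00000033057, chromosome 16), an annotated pseudogene, had -0.29 (SE 0.079, adjusted p = 0.0407, edgeR) with groups that overlapped. With Gapdh and its copies added together, a choice made after the values were seen, the log2 fold change was -0.19 (SE 0.042, adjusted p = 0.0193, edgeR). Tpi1 summed with its copies had -0.30 (SE 0.087, adjusted p = 0.0465, edgeR). Whether the reads on these rows come from the named enzyme or from transcribed copies was not tested.

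**Figure D2:**
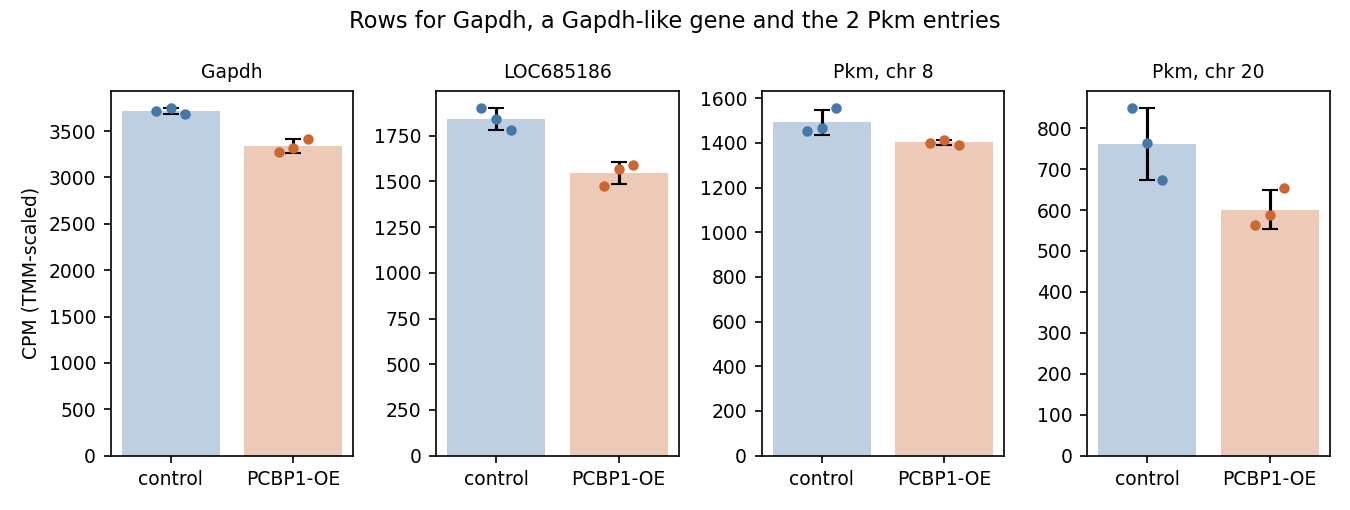
CPM of Gapdh, of the Gapdh-like gene LOC685186 and of both Pkm entries in control and PCBP1-OE libraries, with points for libraries, bars for the mean and whiskers for the SD (n = 3). Each panel has its own axis from 0. Within each panel all PCBP1-OE libraries lie below all controls.

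Phosphoglycerate kinase makes the first ATP of the pathway. Pgk1 (ENSRNOG00000058249, chromosome X) was at 1187, 1204 and 1138 CPM in the control libraries and 1066, 1069 and 1129 CPM in the PCBP1-OE libraries. The highest PCBP1-OE library lay just under the lowest control, and the log2 fold change of -0.11 (SE 0.044, 95% interval -0.21 to -0.017) did not pass (adjusted p = 0.116, edgeR). Without control replicate 3 it did, with an adjusted p of 0.0315.

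Enolase 1, which makes phosphoenolpyruvate, had close replicates in both groups. Eno1 (ENSRNOG00000017895, chromosome 5) was at 1973, 2004 and 1969 CPM in the control libraries and 1762, 1754 and 1761 CPM in the PCBP1-OE libraries. The SD was 19.2 CPM in the control libraries and 4.13 CPM in the PCBP1-OE libraries around means of 1982 and 1759 CPM (n = 3 each). The log2 fold change was -0.17 (SE 0.040, 95% interval -0.26 to -0.086, adjusted p = 0.0222, edgeR). Omitting control replicate 2 gave an adjusted p of 0.0815 (edgeR), and omitting PCBP1-OE replicate 1 or 2 gave 0.0725 and 0.108.

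Ldha (ENSRNOG00000013009, chromosome 1), which regenerates NAD+ by making lactate, was at 2174, 2231 and 2120 CPM in the control libraries and 1947, 1943 and 2050 CPM in the PCBP1-OE libraries. The groups did not overlap, and PCBP1-OE replicate 3 lay nearest to the controls. Its log2 fold change of -0.14 (SE 0.044, 95% interval -0.23 to -0.041) missed the threshold (adjusted p = 0.0662, edgeR). It passed in 5 of 16 alternatives, among them DESeq2 (0.0136) and limma-voom (0.0486). Together the 10 enzymes took 1.06%, 1.10% and 1.09% of all counts in the control libraries and 1.01%, 1.01% and 1.01% in the PCBP1-OE libraries. After TMM scaling their summed level was 11005, 11188 and 10803 CPM in the control libraries and 9827, 9890 and 10222 CPM in the PCBP1-OE libraries, without overlap. In bulk RNA, a lower level in every cell and fewer cells with a high level cannot be told apart.

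**Figure D3:**
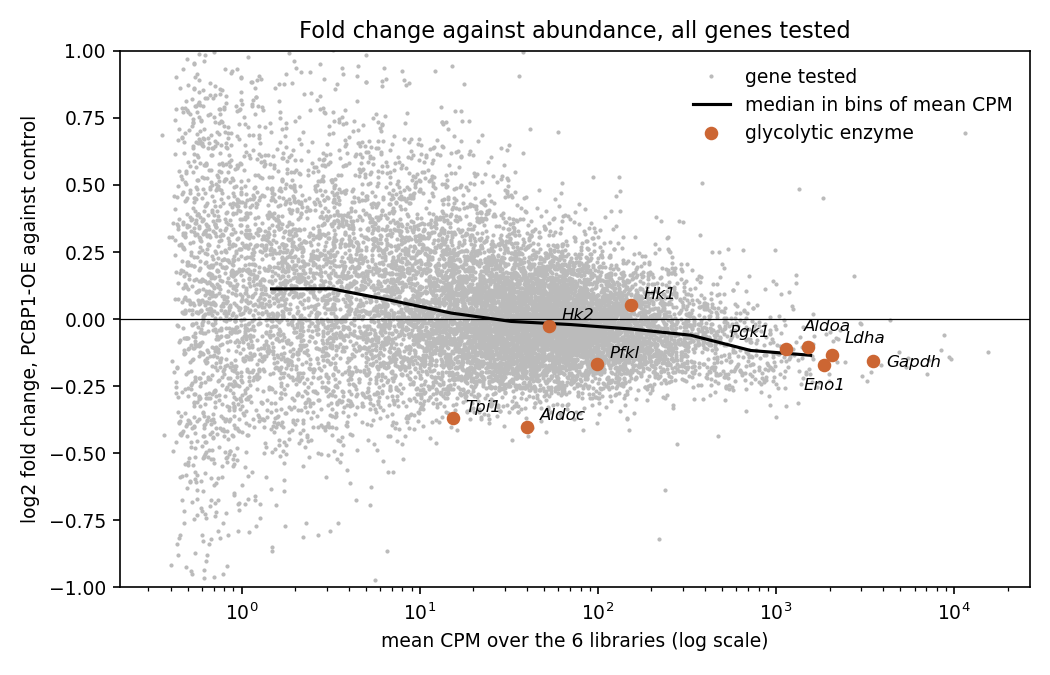
log2 fold change of each tested gene (vertical axis) against its mean CPM over the 6 libraries (horizontal axis, log scale), with the glycolytic enzymes named and a line through the median of genes in bins of mean CPM. The line goes from positive values at low abundance to negative values at high abundance, and Aldoa, Pgk1, Ldha, Eno1 and Gapdh lie near it, while Aldoc and Tpi1 lie well under it. The plot leaves out 72 genes beyond the vertical range.

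Abundance moved with the result. Aldoa, Gapdh, Pgk1, Eno1 and Ldha are among the 277 tested genes with a mean of at least 500 CPM, a grouping chosen after the values were seen. In those 277 genes the median log2 fold change was -0.12 and 83.0% were negative, and 26.4% were called lower in PCBP1-OE. The 5 abundant enzymes had a median of -0.14, all of them negative, and 2 of the 5 were called, which sets them close to other abundant genes. Tested genes under 10 CPM had a median of 0.098. Aldoc, Tpi1, Pfkl and Hk2 lie among the 6306 genes between 10 and 100 CPM. There the median was -0.0071 and 4.77% were called lower. Aldoc, Tpi1 and Pfkl were below that median, as was Hk2 by little (-0.025). Pfkl stands at the upper edge of this range, with a mean of 98.98 CPM. Between 100 and 500 CPM the median was -0.044 and 12.8% were called lower. The place of Tpi1 in this range rests on its uncertain counts. The part of abundance or library composition in the decrease of the enzymes was not tested. TMM factors were 0.968, 0.983 and 1.01 in the control libraries and 1.03, 1.02 and 0.994 in the PCBP1-OE libraries. With scaling by library size alone the median of the 10 enzymes was -0.10 and only Aldoc passed.

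The remaining steps of the pathway were described from a list of 20 other isozymes and accessory enzymes, of which 17 were in the table on 18 rows and 13 rows were tested. Of the 13, 2 fell and 0 rose, beside the 5.00% and 4.45% of all tested genes that did, 10 had a negative log2 fold change, and the median was -0.090. Gpi, which isomerises glucose-6-phosphate between hexokinase and phosphofructokinase, fell from 493 ± 9.73 to 444 ± 1.88 CPM (SD, n = 3 each), with a fitted log2 fold change of -0.15 (SE 0.041, adjusted p = 0.0395, edgeR). Pgam1, the mutase between Pgk1 and Eno1, was at 1167 ± 44.8 and 1058 ± 8.49 CPM (SD, n = 3 each) and did not pass (adjusted p = 0.0579, edgeR). Gpi and Pgam1 thus had changes of the size seen in Eno1 and Ldha.

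Pyruvate kinase, which makes the last ATP, has 2 rows with the symbol Pkm. The row on chromosome 8 (ENSRNOG00000011329) was at 1454, 1465 and 1557 CPM in the control libraries and 1401, 1413 and 1390 CPM in the PCBP1-OE libraries, a log2 fold change of -0.090 (SE 0.043, adjusted p = 0.191, edgeR). The row on chromosome 20 (ENSRNOG00000047276) was at 848, 764 and 673 CPM in the control libraries and 563, 587 and 653 CPM in the PCBP1-OE libraries. It fell by 0.34 on the log2 scale (SE 0.075, adjusted p = 0.0193, edgeR), and its share of the counts on both rows was 36.8%, 34.3% and 30.2% in the control libraries and 28.7%, 29.4% and 32.0% in the PCBP1-OE libraries. These shares overlapped between groups, and reads may be divided between the rows in a way the counting does not reveal. Of the muscle and neuronal enolases, Eno3 had 3129 to 3756 counts per library, while Eno2, the neuron-specific enolase, had 2 to 15 and was not tested.

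**Figure D4:**
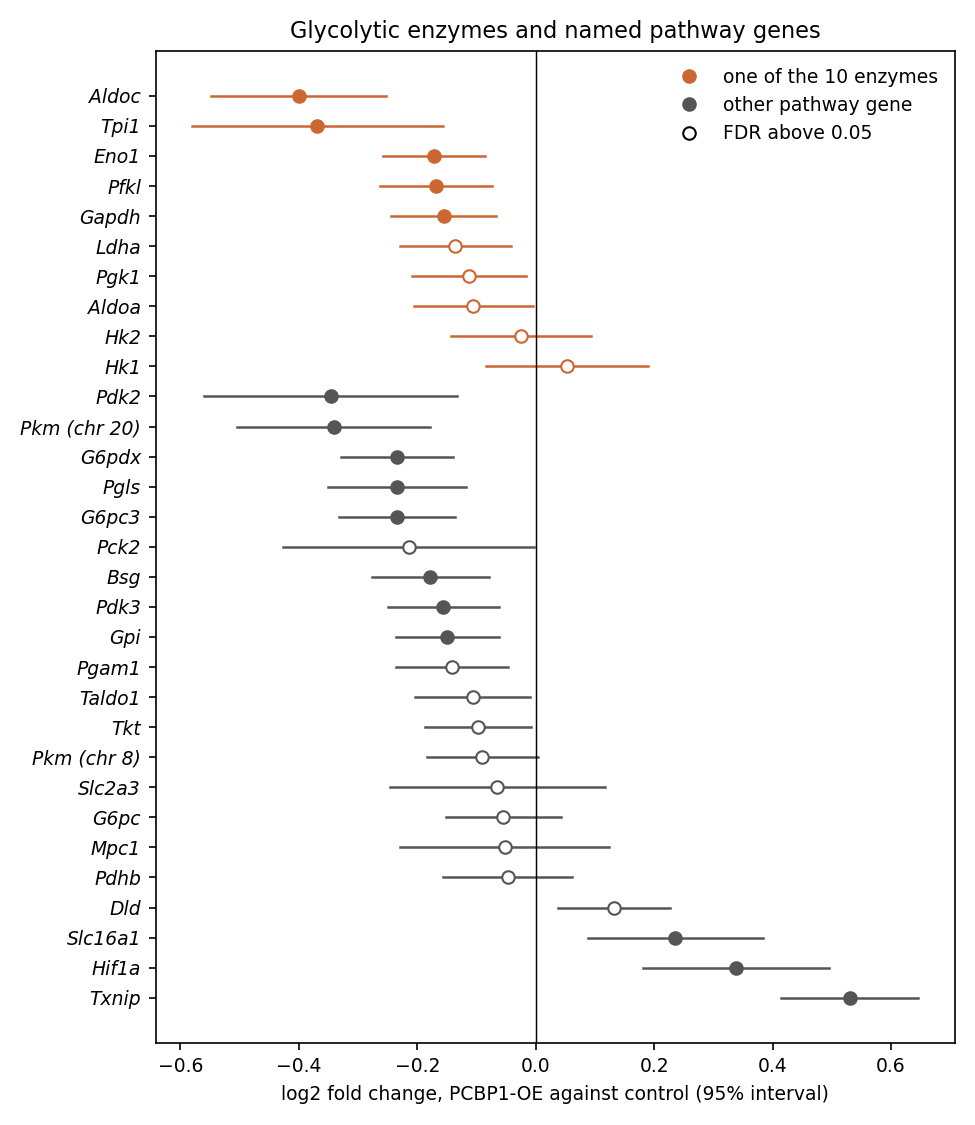
log2 fold change with its 95% interval for the 10 glycolytic enzymes and the named genes of the neighbouring pathways, with filled points at an FDR of 0.05 or less. Negative values are lower in PCBP1-OE. The enzymes run from -0.40 for Aldoc to 0.05 for Hk1, and among the other genes Txnip, Hif1a and Slc16a1 are the filled points on the positive side.

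Genes that feed and drain the pathway moved in both directions. Of 12 transporter genes, 6 were tested and 2 passed, beside 9.45% of all tested genes, the share to be read beside each of the following lists too. Slc16a1, the lactate and pyruvate carrier MCT1, rose from 61.0 ± 4.94 to 71.9 ± 5.71 CPM (SD, n = 3 each), with a fitted log2 fold change of 0.24 (SE 0.069, adjusted p = 0.0483, edgeR). Bsg, its chaperone basigin, went from 637 ± 28.2 to 563 ± 12.1 CPM (SD, n = 3 each), with a fitted log2 fold change of -0.18 (SE 0.046, adjusted p = 0.0327, edgeR). Slc16a1 and its chaperone therefore changed in opposite directions, Slc16a1 passing in 7 and Bsg in 9 of 15 alternatives. The neuronal glucose transporter Slc2a3 was at 50.7 ± 5.31 and 48.4 ± 4.86 CPM (SD, n = 3 each) and did not pass (adjusted p = 0.656, edgeR).

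Among 16 regulators of glycolysis, 14 were tested, 2 rose and 2 fell, and the median log2 fold change was 0.069. Txnip, a glucose-induced inhibitor of glucose uptake, had the smallest adjusted p of these lists. It was at 99.7, 108 and 116 CPM in the control libraries and 157, 155 and 157 CPM in the PCBP1-OE libraries, a log2 fold change of 0.53 (SE 0.054, adjusted p = 4.0e-04, edgeR), and it passed in all 15 alternatives. Hif1a, the oxygen-regulated subunit of HIF-1, was at 74.6, 77.0 and 85.8 CPM in the control libraries and 111, 89.9 and 99.2 CPM in the PCBP1-OE libraries, a log2 fold change of 0.34 (SE 0.073, adjusted p = 0.0179, edgeR). The mRNA of Hif1a thus rose while no glycolytic enzyme did, and it passed in 11 of 15 alternatives. Pdk2 and Pdk3, kinases that switch off pyruvate dehydrogenase, had log2 fold changes of -0.35 (SE 0.099) and -0.16 (SE 0.043), with adjusted p-values of 0.0455 and 0.0422 (edgeR). Each passed in 6 of 15 alternatives.

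Of 8 genes that bring pyruvate into mitochondrial metabolism, 7 were tested and 0 passed at an FDR of 0.05 in edgeR or in DESeq2, with 1 gene, Dld, at an unadjusted p under 0.05. Dld, the shared dehydrogenase subunit of pyruvate dehydrogenase, was at 196 ± 5.91 and 215 ± 4.95 CPM (SD, n = 3 each; log2 fold change 0.13, adjusted p = 0.0718, edgeR). Mpc1, a subunit of the mitochondrial pyruvate carrier, and Pdhb had log2 fold changes of -0.053 and -0.047, with adjusted p-values of 0.718 and 0.579 (edgeR). Of 6 gluconeogenesis genes, 3 rows were tested and G6pc3, a glucose-6-phosphatase subunit, fell by 0.23 on the log2 scale (SE 0.045, adjusted p = 0.0125, edgeR). Pck2, the mitochondrial PEP carboxykinase, had a log2 fold change of -0.21 and did not pass (adjusted p = 0.172, edgeR). The symbol G6pc stands on 2 rows, and the row that was tested (ENSRNOG00000051344) had a log2 fold change of -0.055 (adjusted p = 0.457, edgeR). The RefSeq table lists Psme3 as a synonym of this gene, so the identity of that row is uncertain.

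The pentose phosphate pathway branches off at glucose-6-phosphate, and 6 of its 7 listed genes were tested. Its first enzymes fell, with G6pdx, glucose-6-phosphate dehydrogenase, at 285, 266 and 268 CPM in the control libraries and 227, 233 and 236 CPM in the PCBP1-OE libraries. The log2 fold change of G6pdx was -0.23 (SE 0.044, adjusted p = 0.0111, edgeR), and that of Pgls, which hydrolyses the product of G6pdx, was -0.23 (SE 0.054, adjusted p = 0.0221, edgeR). Tkt and Taldo1, the enzymes that return sugars from this branch to glycolysis, had -0.098 and -0.11 and did not pass (adjusted p = 0.141 for each, edgeR). Across the 6 lists beside the 10 enzymes, 49 rows were tested and 11 passed, 3 higher and 8 lower, where 9.45% of all tested genes passed, 4.45% higher and 5.00% lower. These lists were chosen with earlier results of these data known, so the counts are a description.

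The promoters were read for the core letters of the HIF-1 response element, since several of the enzymes are textbook HIF-1 targets. The RefSeq promoter table (build GRCr8) held windows of 300 bases, from 250 before to 50 after the start site, for 9 of the 10 enzymes. The letters ACGTG or GCGTG, on either strand, stood in at least 1 window of 7 enzymes, and in 41.6% of all 33469 windows and 44.6% of all 27457 genes of the table. Aldoc held 3 matches, Gapdh 3, Eno1 3, Ldha 6, Pfkl 2, and Aldoa and Hk1 1 each, while the windows of Hk2 and Tpi1 held 0. The sequence CACGTG in Ldha reads the same on both strands and counts as 2 of its matches. The 29 bases around a match are shown for Aldoc, which fell most, for Gapdh and Pfkl, which also fell, and for Ldha, which has the most matches and did not pass, with the matched letters in capitals.
Aldoc, chr10:63715424-63715452, plus strand, match at -108: ccacccctgaagGCGTGgccttaccctag
Aldoc, chr10:63715501-63715529, plus strand, match at -31: cccccagggagtCACGTagctctgcggca
Gapdh, chr4:159652572-159652600, minus strand, match at -121: gctttacgggtgCACGTagctcaggcctc
Pfkl, chr20:10663793-10663821, plus strand, match at -160: ttgtagactggaGCGTGctccgcccttct
Ldha, chr1:106507994-106508022, plus strand, match at -86: agcccagcctacACGTGggttcccgcacg
Positions count from the start site to the first base of the match. A match of 5 letters is a description, not a site, and any part of HIF-1 in the changes of these enzymes was not tested.

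Galk1, Tk1 and Tmem97 followed Aldoc most closely over the 6 libraries, out of 4241 other genes with a mean of at least 50 CPM, with root mean square differences of 0.021, 0.019 and 0.029 between centred log2 CPM profiles. Galk1, galactokinase, was at 90.5, 84.2 and 75.2 CPM in the control libraries and 63.1, 65.6 and 64.0 CPM in the PCBP1-OE libraries. Like Aldoc, these genes had their lowest control level in control replicate 3, which follows from choosing them by their likeness to Aldoc. All of them lie on chromosome 10, as Aldoc does. The 745 genes of that chromosome with a mean of at least 10 CPM had a median log2 fold change of -0.039, and 9.53% of them fell. Over all 8463 such genes the median was -0.020 and 7.27% fell. By chromosome, the share that fell ran from 3.33% (chromosome 6) to 10.8% (chromosome 20). The medians ran from -0.060 (chromosome 7) to 0.027 (chromosome 14), so chromosome 10 was not the extreme. This comparison was chosen after the values were seen.

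The cell type label was checked against markers. Of 8 chromaffin markers, 7 were in the table, and only Th, tyrosine hydroxylase, was above 1 CPM in every library, at 6.85 to 8.86 CPM. Chga was at 0 counts in 4 of 6 libraries, and Dbh, Ddc and Chgb had at most 5, 4 and 9 counts in any library. By contrast S100b, a glial marker, was at 212 to 243 CPM and Pdgfra at 195 to 226 CPM. The data therefore go against chromaffin identity by most of its defining markers, in the control libraries and PCBP1-OE alike, and the cells are called here by their label. The summed level of the chromaffin list was 9.03 to 10.2 CPM in the control libraries and 8.85 to 10.1 CPM in the PCBP1-OE libraries. The leukocyte list was at 7.60 to 8.96 and 6.89 to 7.66 CPM, and the glial list at 231 to 257 and 222 to 232 CPM, both with overlap. The fibroblast list, nearly all of it Pdgfra, was at 225 to 230 CPM in the control libraries and 200 to 212 CPM in the PCBP1-OE libraries without overlap, with Dcn at 0 in 2 libraries, and its part in the decrease of the enzymes was not tested. Whether PCBP-1 was overexpressed in these libraries was not checked here. The paper reports a higher PCBP-1 level in PCBP1-OE cells by RT-qPCR and by western blotting.

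**Figure D5:**
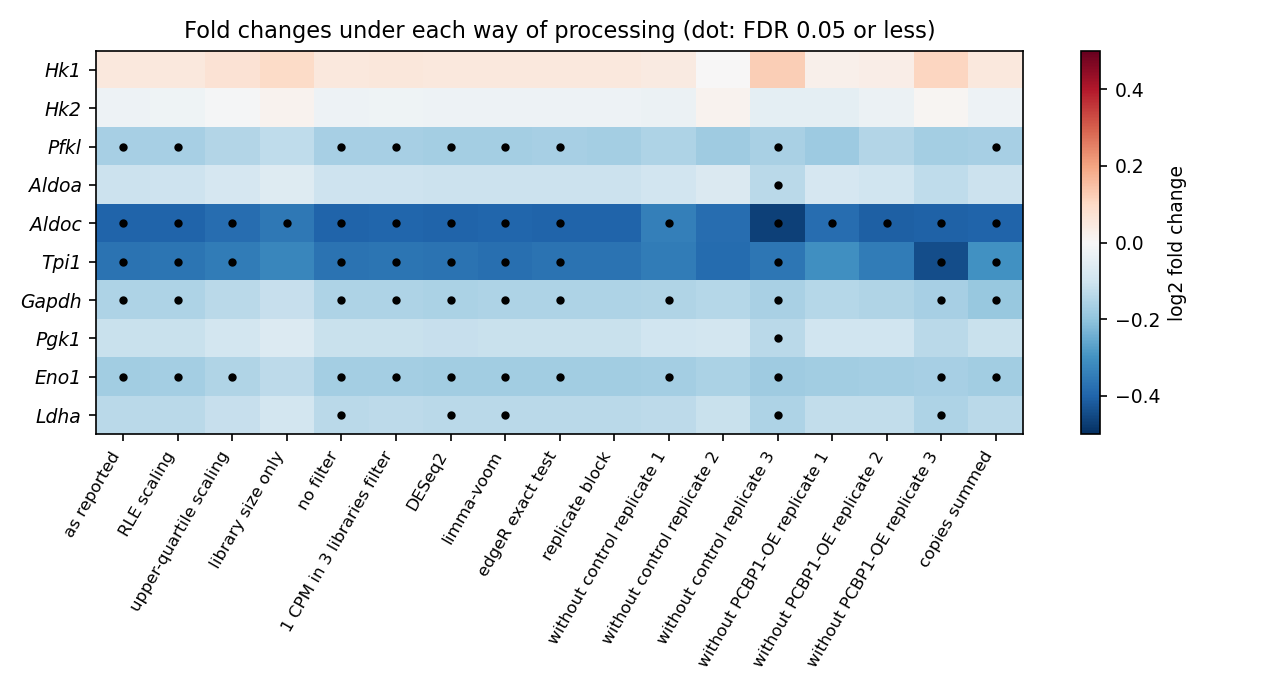
log2 fold change of each glycolytic enzyme (rows) as reported and under each alternative way of processing (columns), in colour from blue (lower in PCBP1-OE) to red (higher), with a dot where the FDR was 0.05 or less. Aldoc has a dot in all columns but the replicate block and the omission of control replicate 2, and the colours of Hk1 and Hk2 stay near white.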

How the data were processed

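Gene-level read counts, raw and whole, were deposited by the authors for 6 libraries of polyadenylated RNA. The methods name FASTX-Toolkit for trimming and TopHat2 for alignment to Rnor_6.0, and only reads with a unique position entered the count. The submitters' processing notes instead name the human build GRCh38, although the gene identifiers are from rat. The labels and the methods also name different stranded library kits. Which tool counted the reads, with which strand setting and which annotation release, is not given in the sources used here. Libraries were grouped by their titles.

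The counts were tested with edgeR 4.0.16 (R 4.3.3), with TMM scaling, filterByExpr (minimum count 10, minimum total 15; 12624 of 20609 genes kept) and the quasi-likelihood test, with Benjamini-Hochberg adjustment over all tested genes. Ratios were tested by exact permutation (scipy 1.17.1). The pipeline was tested on simulated data. Depth was 19730209 to 22315623 counts per library.

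The enzymes and all gene lists were chosen with earlier results of these data known. Named genes are the 10 enzymes, every gene of the 6 pathway lists past an FDR of 0.05, the 3 most abundant of each list, and 3 genes most like the enzyme with the smallest adjusted p. Eno2, Eno3 and the copies of Gapdh and Tpi1 were named after their values were seen. Alternatives were RLE, upper-quartile and library-size scaling, other filters, DESeq2 1.42.0, limma-voom (limma 3.58.1), edgeR's exact test, a replicate block, each library left out, and copies summed. Splicing, RT-qPCR and CLIP data were not used here.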

Additional observations from a re-analysis of the deposited data

How the results depend on the processing

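Of the 10 enzymes, the number past an FDR of 0.05 was 5 as reported and 5 or 6 with RLE scaling, without a filter, with a stricter filter, with DESeq2, limma-voom or edgeR's exact test and with copies summed. It was 3 with upper-quartile scaling, 1 with library size only, 0 with the replicate number as a block (5 at an unadjusted p under 0.05) and 0 to 8 with each library left out. Over all tested genes, 9.45% were called as reported, 0.127% under the block, 0.375% without control replicate 2 and 22.3% without control replicate 3. With upper-quartile scaling 8.57% were called, and with library size only 6.95%. Under these scalings the share over all genes thus fell less than the number of enzymes. Without PCBP1-OE replicate 3, 5 enzymes were called beside 5.42% of all tested genes. Upper-quartile scaling called 655 genes higher and 427 lower, and library size only 618 and 259, against 562 and 631 as reported. Libraries with the same number did not deviate together (correlations of -0.078, -0.051 and -0.043). These correlations cannot tell whether such libraries were handled together, which the titles do not say. Log2 fold changes ran from 0.0027 (without control replicate 2) to 0.12 (without control replicate 3) for Hk1, from -0.14 to -0.063 for Aldoa and from -0.14 to -0.070 for Pgk1, the last values of Aldoa and Pgk1 with library size only. All alternatives kept a negative sign for Pfkl, Aldoa, Aldoc, Tpi1, Gapdh, Pgk1, Eno1 and Ldha and a positive one for Hk1. Hk2 was -0.050 to 0.016 by library and 0.018 with library size only.

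The other isozymes had 2 past the threshold as reported, 1 with upper-quartile scaling or library size only, 0 with the block and 0 to 4 with each library left out. Transport had 2, then 0 with library size only, 1 with limma-voom, 0 with the block and 0 to 3 by library. Regulators had 4, then 2 with upper-quartile scaling or library size only, 1 with the block and 1 to 4 by library. Pyruvate entry had 0, then 1 with upper-quartile scaling and 0 to 1 by library. Gluconeogenesis had 1, then 0 with the block and 0 to 2 by library. The pentose phosphate pathway had 2, then 1 with library size only, 0 with the block and 0 to 3 by library. The log2 Aldoc/Aldoa difference was -0.33 to -0.24 by library and -0.29 as paired differences (exact sign-flip permutation test, p = 0.25, the smallest possible). The log2 Hk2/Hk1 difference was -0.17 to 0.011 by library, and it reversed, to 0.011, without control replicate 2. The summed level of the enzymes differed by -0.14 on the log2 scale, -0.16 to -0.13 by library and -0.098 with library size only. Mpc1 (-0.15 to 0.016 by library) reversed without control replicates 1 (0.0068) or 2 (0.0033) or PCBP1-OE replicate 2 (0.016), and Slc2a3 (-0.15 to 0.016) without PCBP1-OE replicate 2 (0.016). The cause of these changes was not tested. With 5 libraries there are fewer residual degrees of freedom.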
